A study of Rattus norvegicus with 9 samples.

Results

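Neurexins, neuroligins and leucine-rich repeat transmembrane (LRRTM) proteins join the presynaptic to the postsynaptic membrane, and 7 of their genes were followed here in rat medial prefrontal cortex. The genes, chosen by symbol, were the neurexins Nrxn2 (gene ID 116595) and Nrxn3 (116508), the neuroligins Nlgn1 (116647), Nlgn2 (117096) and Nlgn3 (171297), and Lrrtm1 (679668, in capitals in the deposited table) and Lrrtm2 (685472). They are 7 of 37991 genes in the count table, and all 7 were among the 18047 that passed a filter on low counts. RNA sequencing covered 9 libraries, 3 in each of 3 groups, all from day 15. K4 rats received K4, a compound known here only by its code, for 7 days through an intravenous cannula. Ketamine rats received ketamine, which blocks NMDA receptors and is used against depression, under the skin for 7 days. Both drugs were then withheld for 7 days, and Control rats had no treatment, which means no injection or cannula that the labels mention. All 3 groups are Wistar Kyoto rats, bred for high blood pressure studies as the normotensive line and known for passive behaviour under stress, so no library shows the genes in another strain. The labels name no dose, vehicle, age or sex, and do not say whether a library is 1 animal or a pool, so p-values measure the spread between libraries only.

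Neurexins are presynaptic membrane proteins that are heavily alternatively spliced, and they bind neuroligins, LRRTMs and secreted ligands across the synaptic cleft. Neuroligin-1, encoded by Nlgn1, sits mainly at glutamatergic synapses and is linked to NMDA receptor recruitment. Neuroligin-2, encoded by Nlgn2, sits mainly at GABAergic and glycinergic synapses with gephyrin, and neuroligin-3, encoded by Nlgn3, occurs at both kinds of synapse and in glia. LRRTM1 and LRRTM2 are postsynaptic partners of neurexins at glutamatergic synapses, where they help to hold AMPA receptors. Gene-level counts do not separate the splice forms or the long and short promoter forms of neurexins, on which partner choice depends.

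Promoter sequences are shown for Nlgn1 and Lrrtm1, the 2 genes with calls between groups, and for Nlgn2, whose values lay on the other side of Nlgn1 after K4. Each runs from 250 bases before to 50 bases after the annotated start and comes from RefSeq on build GRCr8, a later build than the rn6 of the deposited data. RefSeq promoters were on hand for 5 of the 7 genes. Capitals mark GGGCGG, the core of the GC box, on either strand (CCGCCC where it lies on the other strand). Nlgn1 is at chr2:110930627-110930926 on the minus strand, Nlgn2 at chr10:55056529-55056828 on the minus strand, and Lrrtm1 at chr4:111259609-111259908 on the plus strand.
Nlgn1: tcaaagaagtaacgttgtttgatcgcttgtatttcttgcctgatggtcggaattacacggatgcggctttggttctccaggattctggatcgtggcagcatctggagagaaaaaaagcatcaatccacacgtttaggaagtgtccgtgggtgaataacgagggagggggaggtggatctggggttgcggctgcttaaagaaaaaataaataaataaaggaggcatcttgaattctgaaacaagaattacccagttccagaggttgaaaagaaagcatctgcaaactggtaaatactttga
Nlgn2: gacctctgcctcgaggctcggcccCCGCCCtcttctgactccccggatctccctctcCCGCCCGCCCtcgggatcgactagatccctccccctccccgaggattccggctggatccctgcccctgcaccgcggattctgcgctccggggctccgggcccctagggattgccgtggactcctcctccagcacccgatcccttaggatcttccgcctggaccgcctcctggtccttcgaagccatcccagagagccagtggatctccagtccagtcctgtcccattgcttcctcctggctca
Lrrtm1: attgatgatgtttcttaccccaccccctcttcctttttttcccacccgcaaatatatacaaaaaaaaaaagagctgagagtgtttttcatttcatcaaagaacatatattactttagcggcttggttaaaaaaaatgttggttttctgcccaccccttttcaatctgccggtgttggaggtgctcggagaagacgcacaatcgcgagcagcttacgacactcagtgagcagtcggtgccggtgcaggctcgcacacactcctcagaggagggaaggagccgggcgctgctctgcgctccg

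The 3 windows differ in composition. GC content was 43.3% in the Nlgn1 window, 67.3% in the Nlgn2 window and 49.0% in the Lrrtm1 window, against a median of 59.3% over the promoters of 15138 tested genes. The Nlgn2 window holds 3 GGGCGG matches, 226, 193 and 189 bases before the start, of which the last 2 overlap each other, while the Nlgn1 and Lrrtm1 windows hold none. This motif is present in 54.9% of the tested genes' promoters. The E-box CACGTG, a motif of clock and other basic helix-loop-helix factors, was in none of the 5 windows and in 8.52% of the tested genes' promoters. The cyclic AMP response element TGACGTCA was matched once, 74 bases before the start of Lrrtm2, and in 2.70% of the tested genes' promoters. These are letter matches on both strands within the windows, not measured sites.

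Library totals lay between 28495399 and 32735785 counts in K4, between 27122207 and 33837450 in Ketamine and between 40863756 and 42731004 in Control. The 13 mitochondrially encoded protein genes took 10.8% ± 0.518 of counts in K4, 11.4% ± 0.652 in Ketamine and 15.1% ± 3.68 in Control (SD, n = 3 each). The Controls were spread widely, at 14.6%, 19.0% and 11.6% in libraries 1 to 3. Control library 2 had the highest share, and results that rest on it are also given without it. In normalised counts Control 2 was the lowest Control for 6 of the 7 genes, and Control 3 was the highest Control for all 7. Counts depended on transcript length differently in the groups, with slopes of log2 CPM per doubling of length of −0.02 to 0.00 in K4, −0.07 to −0.02 in Ketamine and 0.04 to 0.07 in Control. Lrrtm1 lies near the middle of the tested genes by transcript length (percentile 52.6), and the others of the 7 are longer (percentiles 73.4 to 90.8). A fit with an offset for the length trend, called the length offset, therefore stands beside the counts. Excitatory neuron markers summed to 2074 to 2222 CPM in K4, 1965 to 2066 CPM in Ketamine and 2174 to 2447 CPM in Control. Striatal markers summed to 168 to 184, 165 to 174 and 159 to 173 CPM in K4, Ketamine and Control. These sums cannot check the cortical label, since the lists hold different genes and no library is from another region. Deposited TPM, scaled to a common total, shifted the median of all tested genes by 0.14 on the log2 scale for K4 and 0.10 for Ketamine against Control. Its split of calls was 943 higher and 75 lower for K4 and 1419 higher and 421 lower for Ketamine by limma, against 409 higher and 686 lower, and 1254 higher and 1759 lower, by edgeR on counts, so fold changes below come from counts.

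Per transcript length, Nrxn2 was the highest of the 7 genes in every library and Lrrtm2 the lowest in 8 of 9. Mean deposited TPM (a level divided by transcript length and scaled to a common total) over all 9 libraries was 131 ± 18.1 for Nrxn2, 90.9 ± 11.5 for Nlgn2, 71.0 ± 10.1 for Nrxn3 and 67.5 ± 7.90 for Nlgn3. It was 40.5 ± 4.98 for Nlgn1, 35.4 ± 6.38 for Lrrtm1 and 26.2 ± 3.35 for Lrrtm2 (SD, n = 9). All 7 stood in the upper part of the tested genes, at percentiles 69.6 to 94.3 of mean TPM. The order Nrxn2, Nlgn2, then the other 5 held in 9 of 9 libraries. Nrxn3 and Nlgn3 did not differ beyond their spread, Nrxn3 being the higher in 6 of 9 libraries. Likewise Nlgn1 was above Lrrtm1 in 7 of 9 and Lrrtm1 above Lrrtm2 in 8 of 9. The full order of the means occurred in 5 libraries.

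**Figure D1:**
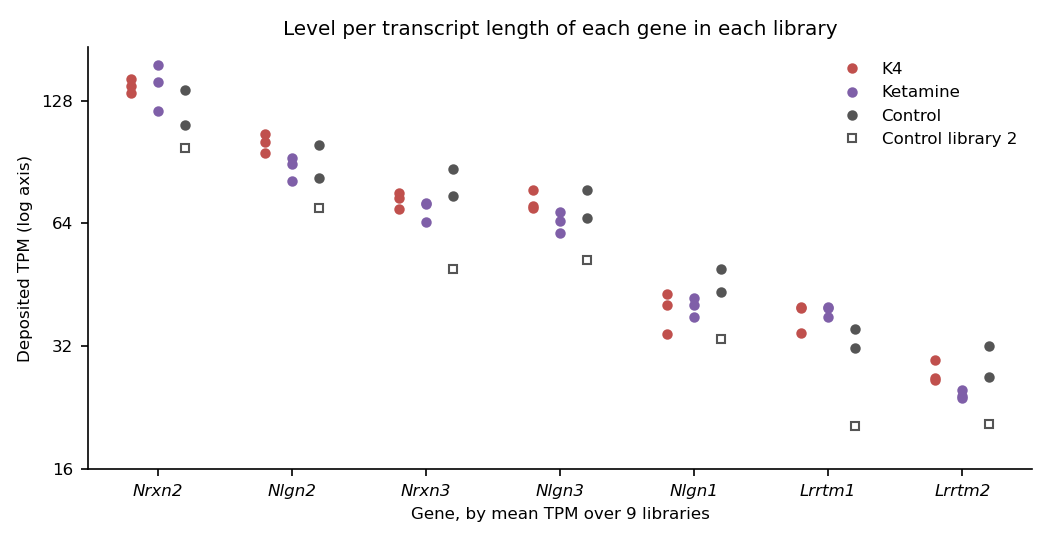
Deposited TPM of each gene (log axis) in the 9 libraries, genes ordered by mean TPM, with K4, Ketamine and Control side by side and Control library 2 as an open square. Nrxn2 ranges from 98.1 to 156 TPM and Lrrtm2 from 20.6 to 32.1 TPM, and Control library 2 is the lowest Control for all 7 genes.

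After K4, Nlgn1 fell by 18.8% against Control, and none of the other 6 genes passed the test. After ketamine, Nlgn1 fell by 13.7% and Lrrtm1 rose by 25.2%, and none of the other 5 passed. Between K4 and Ketamine, none of the 7 passed. All values are normalised counts scaled to library size (CPM) unless TPM is named, and a call is an adjusted p below 0.05 over all 18047 genes. In bulk tissue, fewer cells of a type and less RNA per cell cannot be told apart. The K4 and Ketamine comparisons share the 3 Control libraries, so a shared direction in both is not independent, and the difference between the drugs is tested only by K4 against Ketamine.

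**Figure D2:**
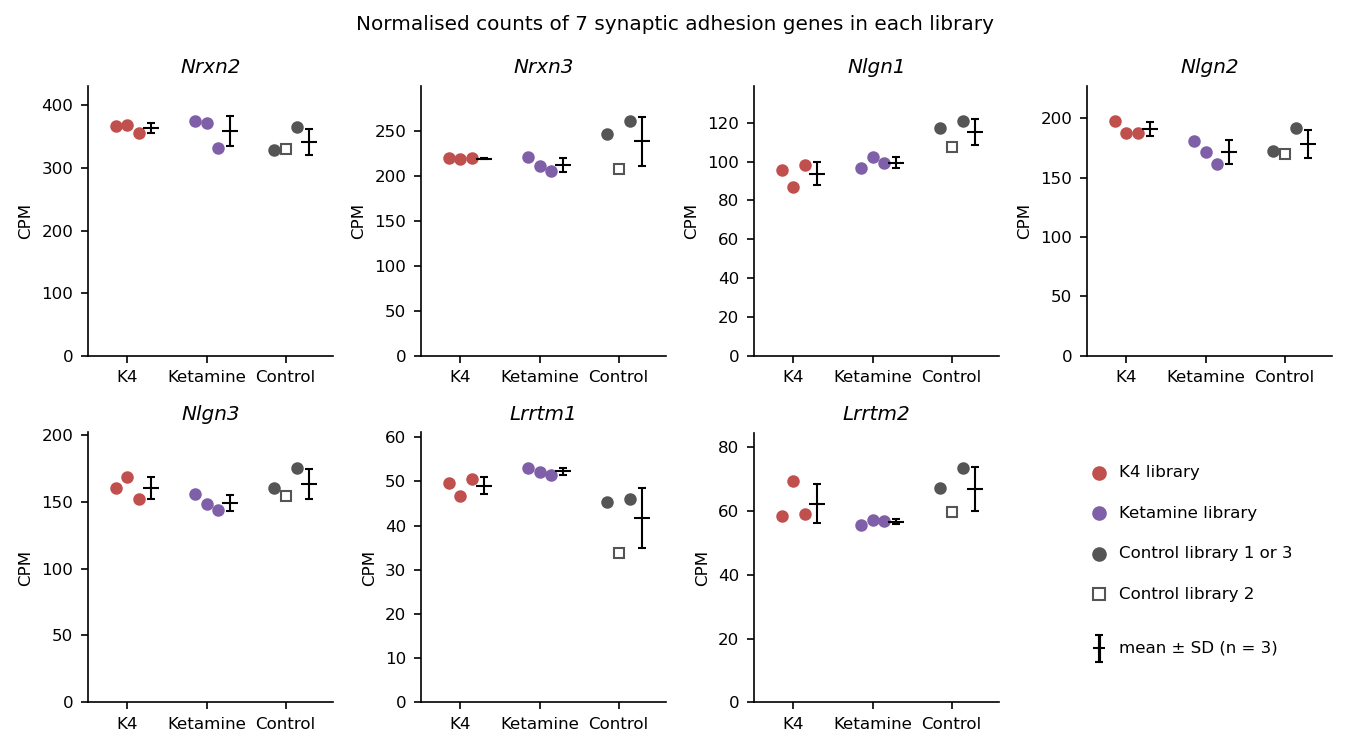
Normalised counts (CPM) of the 7 genes in each K4, Ketamine and Control library, replicates 1 to 3 from left to right in each group, with mean ± SD (n = 3). All K4 and Ketamine libraries lie below all Controls for Nlgn1 and above all Controls for Lrrtm1, and Control library 2 (open square) has the lowest Control value for 6 of the 7 genes.

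Of the 7 genes, 1 was called between K4 and Control, where 6.07% of all tested genes were called, 2.27% higher and 3.8% lower. Nlgn1 had 95.8, 87.0 and 98.2 CPM in K4 libraries 1 to 3, against 118, 108 and 121 CPM in Control libraries 1 to 3. The highest K4 library lay below the lowest Control library, so the groups did not overlap. The log2 fold change was −0.30 (SE 0.065, 95% interval −0.44 to −0.16, edgeR quasi-likelihood test, Benjamini-Hochberg adjusted p = 0.0206). Groups that did not overlap were found for 2 of the 7 genes, Nlgn1 and Lrrtm1, and for 27.5% of all tested genes.

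The fall of Nlgn1 after K4 was larger than the median of genes of like length, yet its call depended on the fit. Among the 1805 genes of its length class, 1 of 10 equal classes by implied transcript length (Nlgn1 lies at 5.75 kb), the median log2 fold change of K4 against Control was −0.08, and 7.20% of genes were called lower. With the length offset the value for Nlgn1 was −0.23 (edgeR adjusted p = 0.0650), which is not a call, where 2.62% of all genes were called. In the 9 fits that each left out 1 library the value ran from −0.35 to −0.25. The call was lost without Control 1 (edgeR adjusted p = 0.104) and without K4 1, 2 or 3 (0.0633, 0.0826 and 0.0541), and held without Control 2 (−0.35, edgeR adjusted p = 0.00347). With only the K4 and Control libraries in the fit the edgeR adjusted p was 0.0591, and by limma on log2(TPM + 1) the value was −0.09 (adjusted p = 0.688).

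Nlgn2 and Nlgn3, the other neuroligins, did not pass the test after K4. Nlgn2 had 197, 187 and 187 CPM in K4 libraries, against 173, 169.5 and 191 CPM in Control libraries, with only Control 3 inside the K4 range. Its log2 fold change was 0.10 (95% interval −0.04 to 0.24, edgeR adjusted p = 0.379). Nlgn3 had 160.5, 168 and 152 CPM in K4 libraries, against 159.9, 154 and 175 CPM in Control libraries, and the groups overlapped almost fully (−0.03, 95% interval −0.17 to 0.12, edgeR adjusted p = 0.853), a sign that turned to 0.04 with the length offset and 0.17 on the TPM scale.

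Within the neuroligins the balance of Nlgn1 to Nlgn2 therefore lay lower in K4, a description with no test of its own. The ratio of Nlgn1 to Nlgn2 TPM was 0.360 to 0.423 in K4 libraries, 0.409 to 0.498 in Ketamine libraries and 0.478 to 0.526 in Control libraries. K4 and Control did not overlap, and Ketamine overlapped both. On counts, the same ratio was 0.464 to 0.524 in K4, 0.534 to 0.616 in Ketamine and 0.631 to 0.680 in Control, with no overlap between any of the groups. A ratio within a library does not depend on library size, but it does carry the length trend, since Nlgn1 transcripts (5.75 kb) are longer than those of Nlgn2 (4.52 kb).

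The neurexins did not pass the test after K4. Nrxn2 had 367, 369 and 355 CPM in K4 libraries, against 329, 329.9 and 365 CPM in Control libraries, and Control 3 fell within the K4 range (log2 fold change 0.09, 95% interval −0.05 to 0.23, edgeR adjusted p = 0.441). Nrxn3 had 219, 218 and 219.6 CPM in K4 libraries, against 246, 208 and 261 CPM in Control libraries. Its K4 libraries were almost equal, and Control 2 lay below them while Controls 1 and 3 lay above. The log2 fold change was −0.12 (95% interval −0.28 to 0.04, edgeR adjusted p = 0.355). Without Control 2 it was −0.21 and called (edgeR adjusted p = 0.0231), without Control 3 it was −0.03 (adjusted p = 0.835), and with the length offset it was −0.03 (edgeR adjusted p = 0.845).

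The LRRTM genes lay in opposite directions after K4, and neither passed. Lrrtm1 had 49.7, 46.8 and 50.6 CPM in K4 libraries, against 45.4, 33.9 and 45.9 CPM in Control libraries. All K4 libraries were above all Controls, with K4 2 and Control 3 less than 1 CPM apart and Control 2 far below the rest. The log2 fold change was 0.23 (95% interval 0.02 to 0.44, edgeR adjusted p = 0.166), 0.10 without Control 2 and 0.33 without Control 3. Lrrtm2 had 58.5, 69.3 and 58.9 CPM in K4 libraries, against 67.1, 59.7 and 73.5 CPM in Control libraries, with the ranges overlapping (−0.10, 95% interval −0.28 to 0.08, edgeR adjusted p = 0.496). Its value ran from −0.19 without K4 2 to −0.01 without Control 3, and was −0.18 without Control 2.

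**Figure D3:**
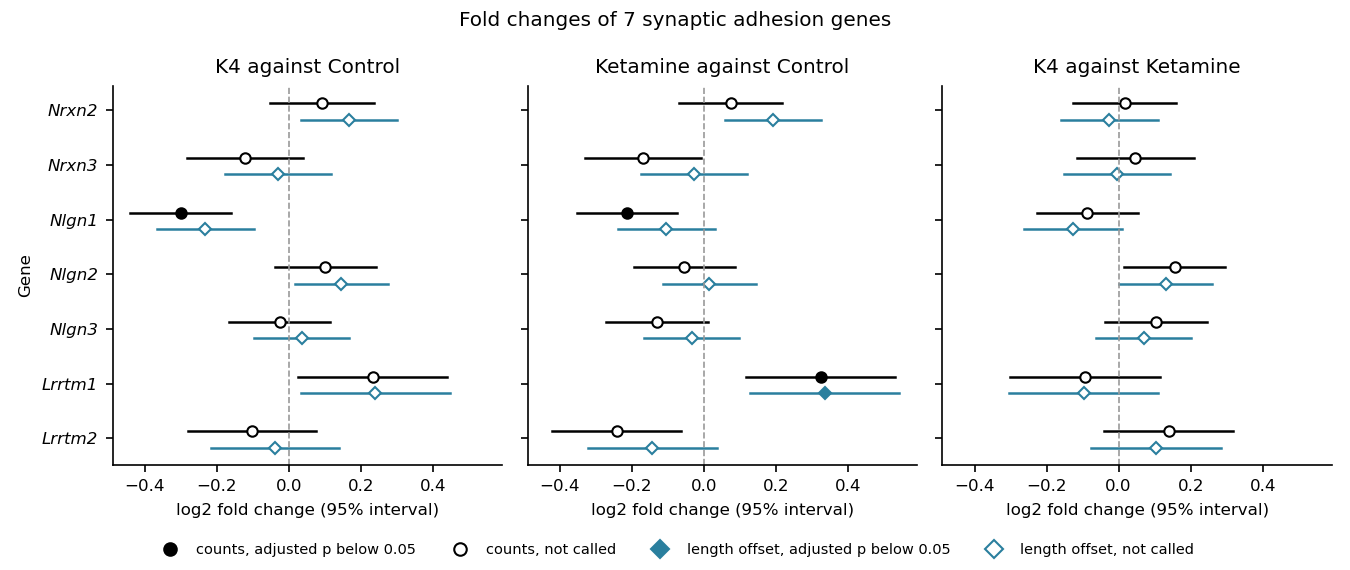
Log2 fold changes with 95% intervals for the 7 genes in the 3 comparisons, from counts (circles) and with the length offset (diamonds), filled where edgeR's adjusted p was below 0.05. Nlgn1 is called on counts in both drug groups against Control (−0.30 for K4 and −0.21 for Ketamine), Lrrtm1 is called after ketamine in both fits (0.32 and 0.34), and no gene is called between K4 and Ketamine.

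Of the 7 genes, 2 were called between Ketamine and Control, where 16.7% of all tested genes were called, 6.95% higher and 9.75% lower. Nlgn1 had 96.7, 103 and 99.3 CPM in Ketamine libraries 1 to 3, against 118, 108 and 121 CPM in Control libraries. The groups did not overlap, Ketamine 2 and Control 2 being the closest pair. The log2 fold change was −0.21 (SE 0.065, 95% interval −0.35 to −0.07, edgeR adjusted p = 0.0389). Nlgn1 was also the only gene of the 7 called in the test of any difference among the 3 groups (edgeR adjusted p = 0.0199), which called 12.2% of all tested genes.

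The Nlgn1 call after ketamine was close to the threshold and did not hold with the length offset. Among genes of like length the median was −0.13 and 18.1% were called lower. With the length offset Nlgn1 was at −0.10 (edgeR adjusted p = 0.335). In the 9 fits without 1 library the value ran from −0.26 to −0.16 and the call held in 2, without Control 2 (−0.26, edgeR adjusted p = 0.00926) and without K4 2 (adjusted p = 0.0356). It was lost without Control 1 or 3, K4 1 or 3, or any Ketamine library, at edgeR adjusted p from 0.0513 to 0.144.

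Lrrtm1 had 53.1, 52.2 and 51.5 CPM in Ketamine libraries, against 45.4, 33.9 and 45.9 CPM in Control libraries. The 3 Ketamine libraries were close together and above every Control, and Control 2 stood well below the others. The log2 fold change was 0.32 (SE 0.096, 95% interval 0.12 to 0.53, edgeR adjusted p = 0.0359). Without Control 2 it was 0.20, still called (edgeR adjusted p = 0.0398). With the length offset it was 0.34 and called (edgeR adjusted p = 0.0487), where 8.12% of all genes were.

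Lrrtm1 lies at the middle of the length range (3.09 kb), and genes of its length had a median log2 fold change of 0.00 in Ketamine against Control, with 4.27% called higher. Leaving out 1 library kept the call in 4 of 9 fits, those without a Control and without K4 2. It was lost without K4 1 or 3 (edgeR adjusted p = 0.0559 and 0.0521) and without Ketamine 1, 2 or 3 (0.0899, 0.109 and 0.0930), with values from 0.31 to 0.33. With only the Ketamine and Control libraries in the fit neither call held, at edgeR adjusted p = 0.0625 for Nlgn1 and 0.0663 for Lrrtm1, nor by limma on log2(TPM + 1), at −0.05 (adjusted p = 0.824) and 0.45 (adjusted p = 0.0585). Lrrtm1 lies within the gene Ctnna2 in RefSeq, and since the strand setting of the counts is not given, reads could be shared. Ctnna2, an alpha-catenin gene named for this overlap, was at −0.02 after K4 and −0.01 after ketamine (edgeR adjusted p = 0.872 and 0.923).

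Lrrtm2 was not called after ketamine, although its groups did not overlap. It had 55.6, 57.0 and 56.9 CPM in Ketamine libraries, against 67.1, 59.7 and 73.5 CPM in Control libraries. The Ketamine libraries lay within 2 CPM of each other, and Control 2 was the nearest Control. The log2 fold change was −0.24 (95% interval −0.42 to −0.06, edgeR adjusted p = 0.0634). It was −0.31 and called without Control 2 (edgeR adjusted p = 0.0118), called without K4 2 (−0.24, edgeR adjusted p = 0.0441), −0.15 without Control 3 (adjusted p = 0.242), and −0.14 with the length offset (edgeR adjusted p = 0.317). Lrrtm2 lies within Ctnna1, which was itself called lower after ketamine (−0.34, edgeR adjusted p = 0.0180) and was at −0.23 after K4 (edgeR adjusted p = 0.137), so the count of Lrrtm2 is uncertain. Groups that did not overlap were found for 3 of the 7 genes, Nlgn1, Lrrtm1 and Lrrtm2, and for 35% of all tested genes.

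The balance of Lrrtm1 to Lrrtm2 lay higher in Ketamine. The ratio of Lrrtm1 to Lrrtm2 counts was 0.675 to 0.859 in K4, 0.904 to 0.955 in Ketamine and 0.567 to 0.676 in Control, given as a description. All Ketamine libraries were above all K4 and Control libraries, and K4 2 was level with Control 1. The ratio carries the length trend, since Lrrtm2 transcripts (5.37 kb) are longer than those of Lrrtm1 (3.09 kb). It also rests on the uncertain count of Lrrtm2.

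The remaining 4 genes were not called after ketamine. Nrxn2 had 375, 372 and 332 CPM in Ketamine libraries, against 329, 329.9 and 365 CPM in Control libraries, with 1 library of each group on the other group's side (0.07, 95% interval −0.07 to 0.22, edgeR adjusted p = 0.484). Nrxn3 had 220.3, 211 and 205 CPM in Ketamine libraries, against 246, 208 and 261 CPM in Control libraries, with Control 2 inside the Ketamine range (−0.17, 95% interval −0.33 to −0.01, edgeR adjusted p = 0.144). Without Control 2, Nrxn3 was at −0.26 and called (edgeR adjusted p = 0.00423), and without Control 3 at −0.08 (adjusted p = 0.493), while with the length offset it was at −0.03.

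Among the neuroligins, Nlgn2 had 181, 171 and 161 CPM in Ketamine libraries, against 173, 169.5 and 191 CPM in Control libraries, and the ranges overlapped (−0.05, 95% interval −0.20 to 0.09, edgeR adjusted p = 0.609), a sign that turned to 0.02 with the length offset and 0.08 on the TPM scale. Nlgn3 had 156, 148 and 144 CPM in Ketamine libraries, against 159.9, 154 and 175 CPM in Control libraries. Only Ketamine 1 reached the Control range (−0.13, 95% interval −0.27 to 0.01, edgeR adjusted p = 0.198). Over all 7 genes the median log2 fold change was −0.03 for K4 and −0.13 for Ketamine, each against Control, beside −0.0046 and −0.0023 over all genes tested, and with the length offset the medians of the 7 were 0.04 and −0.03.

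**Figure D4:**
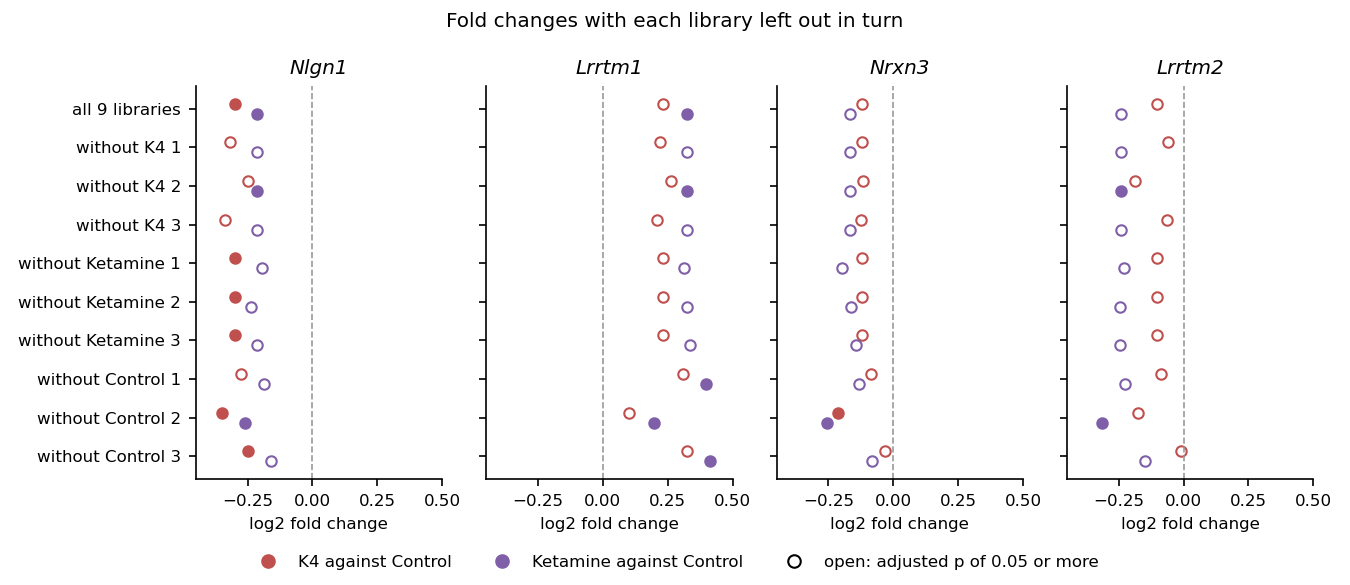
Log2 fold changes of Nlgn1, Lrrtm1, Nrxn3 and Lrrtm2 with all 9 libraries and with each left out in turn, for K4 (red) and Ketamine (purple) against Control, filled where edgeR's adjusted p was below 0.05. Directions hold in every fit, while Nrxn3 is called only without Control 2, and Lrrtm1 after ketamine is at 0.20 there and at 0.41 without Control 3.

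K4 against Ketamine, which asks whether the drugs differed directly, gave no call among the 7 genes, nor among all tested genes (0% by edgeR, with 1648 genes, 9.13%, at an unadjusted p below 0.05, and 70 called by DESeq2, none of them among the 7). Dose is not given and the routes differ, so the compounds were not matched. Nlgn2 had 197, 187 and 187 CPM in K4 libraries, against 181, 171 and 161 CPM in Ketamine libraries, with all K4 libraries above all Ketamine libraries. Its log2 fold change was 0.16 (95% interval 0.01 to 0.30, edgeR unadjusted p = 0.0326 and adjusted p = 0.502), the only one of the 7 with an unadjusted p below 0.05.

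For Nlgn1, the K4 libraries (87.0 to 98.2 CPM) and Ketamine libraries (96.7 to 103 CPM) overlapped, and the log2 fold change of K4 against Ketamine was −0.09 (95% interval −0.23 to 0.05, edgeR adjusted p = 0.721). For Lrrtm1 it was −0.09 (95% interval −0.30 to 0.12, adjusted p = 0.813) and for Lrrtm2 0.14 (95% interval −0.04 to 0.32, adjusted p = 0.655), both without overlap between the groups. Groups that did not overlap were thus found for 3 of the 7 genes and for 17.8% of all tested genes. The intervals of all 7 lay between −0.30 and 0.32, so larger differences between the drugs lie outside the intervals and smaller ones are not shown to be absent.

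Partner genes were described from 8 lists covering 82 genes, of which 80 were tested. Against Control, 2 rose and 6 fell after K4 (10% called), and 2 rose and 19 fell after ketamine (26.2% called), with median log2 fold changes of −0.06 in both. Sizes of change of partner genes are log2 fold changes. With the length offset 3 rose and 3 fell after K4, and 5 rose and 10 fell after ketamine, and none was called between K4 and Ketamine. The shares of 10% and 26.2% stand beside 6.07% and 16.7% over all genes, and those with the length offset, 7.5% and 18.8%, beside 2.62% and 8.12%, and the lists were not tested against other genes.

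Among the postsynaptic neurexin receptors, Igsf21, which binds neurexin 2 at inhibitory synapses, had 52.2, 55.2 and 52.2 CPM in K4, 45.8, 57.5 and 54.2 CPM in Ketamine and 40.2, 38.3 and 41.1 CPM in Control. Every K4 and Ketamine library lay above every Control, and Igsf21 rose by 0.42 after K4 (edgeR adjusted p = 0.0131) and by 0.40 after ketamine (adjusted p = 0.00531), both kept with the length offset. Dag1, the dystroglycan gene, fell by 0.23 after ketamine (edgeR adjusted p = 0.0322), and its call was lost with the length offset and without Control 1 or 2, K4 1, or Ketamine 2 or 3 (adjusted p of up to 0.145). Among 10 tested secreted ligands, Nxph3, a neurexophilin that binds alpha-neurexins, rose after K4, at 17.6, 23.4 and 14.9 CPM in K4, 13.1, 10.4 and 13.7 CPM in Ketamine and 10.4, 8.97 and 12.1 CPM in Control (log2 fold change 0.83, edgeR adjusted p = 0.0177). Igsf21 lost its K4 call without Control 1 (edgeR adjusted p = 0.05035), and Nxph3 without Control 1, K4 1 or K4 2 (adjusted p = 0.0704, 0.0540 and 0.0550).

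Among 12 cytoplasmic and cis partners, 1 fell after K4 and 4 fell after ketamine. Cask, the scaffold that binds the neurexin tail, had 37.6, 34.2 and 34.7 CPM in K4, 35.8, 30.8 and 32 CPM in Ketamine and 50.1, 50.1 and 51.0 CPM in Control. The Controls were nearly equal and far above the other 6 libraries. Cask fell by 0.51 after K4 (edgeR adjusted p = 0.00332) and by 0.62 after ketamine (adjusted p = 0.000373), and was called in all 9 fits without 1 library and with the length offset in both. After ketamine, Apba1 (Mint1, which binds Cask) fell by 0.53, Lin7c (Veli3, in the same complex) by 0.41 and Mdga2 (a cis inhibitor of neuroligins) by 0.51, at edgeR adjusted p = 0.00229, 0.0204 and 0.00199. All 3 remained called with the length offset, and Lin7c was lost without Control 3, Ketamine 2 or Ketamine 3, at adjusted p of up to 0.0966.

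Receptor phosphatases and their ligands form a parallel trans-synaptic adhesion system. In the receptor phosphatase group of 17, 2 fell after K4, and 1 rose and 3 fell after ketamine. Slitrk2, a postsynaptic ligand of receptor phosphatases, fell by 0.51 after K4 and 0.37 after ketamine (edgeR adjusted p = 0.00756 and 0.0103), and Il1rapl1, another such ligand, fell by 0.81 and 0.79 (adjusted p = 0.0354 and 0.0186). Ptprd, the phosphatase they bind, fell by 0.26 after ketamine and Lrfn4, of the SALM family, rose by 0.28 (edgeR adjusted p = 0.0133 and 0.0207). With the length offset Slitrk2 after K4, Il1rapl1 after ketamine and Lrfn4 remained called, and Ptprd was at −0.04. Slitrk2 after K4 was lost without Control 1 (edgeR adjusted p = 0.05035), Il1rapl1 after K4 without Control 1 or any K4 library (up to 0.141), and all 4 of these ketamine calls without Control 1, Ketamine 2 or Ketamine 3 (up to 0.0964).

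None of 10 latrophilin, teneurin and FLRT genes was called after K4 and 5 fell after ketamine. The 4 with the smallest p were Adgrl2 and Adgrl1, both latrophilins, at −0.25 and −0.26, the ligand Flrt1 at −0.43 and the teneurin Tenm3 at −0.33 (edgeR adjusted p = 0.0149, 0.0223, 0.0166 and 0.0309). They kept negative values but no call with the length offset, at −0.12 for Adgrl2, −0.14 for Adgrl1, −0.20 for Flrt1 and −0.11 for Tenm3, and the fifth, Tenm1, was at −0.19. With the same offset the teneurin gene Tenm4, named with Tenm1 after its values were seen, was called higher after K4 (0.40, edgeR adjusted p = 0.0123) and after ketamine (0.29, adjusted p = 0.0168), beside uncalled values of 0.24 and 0.03 without it. The calls of Adgrl1, Adgrl2, Flrt1 and Tenm3 were lost without Ketamine 2, and those of Adgrl1, Adgrl2 and Tenm3 also without Ketamine 3, Control 1 or Control 3, at edgeR adjusted p of up to 0.140. Of 8 SynCAM and netrin-G genes, Cadm2 (SynCAM2) fell by 0.44 after K4 and 0.62 after ketamine (edgeR adjusted p = 0.00552 and 0.000347), called in all 9 fits without 1 library and with the length offset, and Ntng2 fell by 0.46 after ketamine (adjusted p = 0.00832), lost without Ketamine 2 (adjusted p = 0.0528).

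Of 9 regulators of neurexin splicing, none was called after K4, and Rbfox2 fell by 0.44 after ketamine (edgeR adjusted p = 0.00132), kept with the length offset. Of 6 proteases that shed neurexins or neuroligins, Adam10 fell by 0.22 after K4 and 0.38 after ketamine (edgeR adjusted p = 0.0483 and 0.00193) and Adam17 by 0.49 after ketamine (adjusted p = 0.0375). Adam10 after ketamine held in all 9 fits without 1 library and with the length offset, where the other calls of these proteases were lost. After K4 it held only without Control 3, with adjusted p of 0.0627 to 0.179 in the other 8, and Adam17 held in 3 of 9, being lost without Control 1, K4 1 or any Ketamine library (adjusted p of up to 0.140) and without Control 2, where it was at −0.27 (adjusted p = 0.0826).

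**Figure D5:**
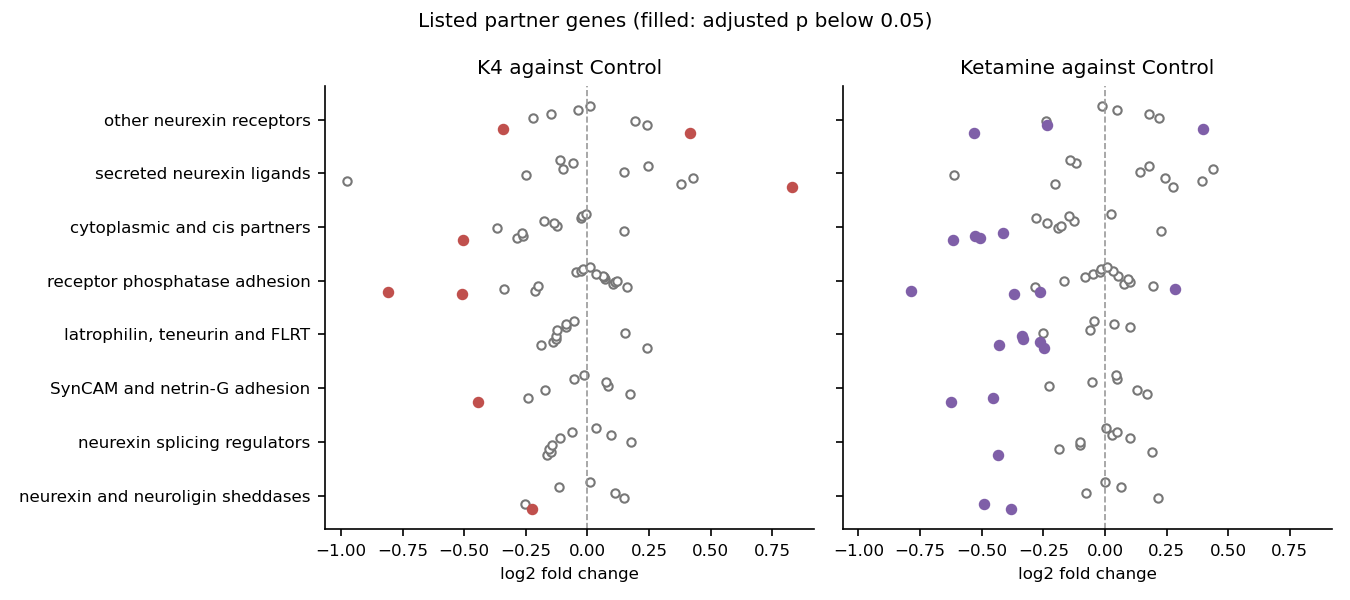
Log2 fold changes of 80 tested partner genes in 8 lists, 1 point per gene, for K4 against Control (left) and Ketamine against Control (right), filled where edgeR's adjusted p was below 0.05. Of the filled points 6 of 8 after K4 and 19 of 21 after ketamine are on the lower side, beside 686 of 1095 and 1759 of 3013 calls over all genes. The partner calls with the length offset are 3 higher and 3 lower after K4 and 5 higher and 10 lower after ketamine.

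Cell type markers also differed between the groups, and their part in the values above was not tested. The counts that follow stand beside 6.07% of all genes called after K4 and 16.7% after ketamine, and beside 2.62% and 8.12% with the length offset. Of 7 endothelial and mural markers, 3 fell after K4 and 4 after ketamine (1 and 4 with the offset), with sums of 287 to 318 CPM in K4, 209.9 to 242 CPM in Ketamine and 324 to 463 CPM in Control. Of 8 astrocyte markers, 2 fell after K4 and 5 after ketamine (1 and 2 with the offset), with sums of 3274 to 3735 CPM in K4, 3139 to 3371 CPM in Ketamine and 3628 to 5799 CPM in Control. Of 6 oligodendrocyte precursor markers, 2 fell after K4 and 5 after ketamine (1 and 3 with the offset), with sums of 193 to 225 CPM in K4, 177 to 192 CPM in Ketamine and 238 to 368 CPM in Control.

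Of 6 microglia markers, 1 fell after K4 and 3 after ketamine (0 and 2 with the offset), with sums of 236 to 255 CPM in K4, 219 to 234 CPM in Ketamine and 238 to 349 CPM in Control. Of 7 oligodendrocyte markers, 1 rose after K4 (0 with the offset) and 0 were called after ketamine. Their sums were 2292 to 3098 CPM in K4, 1605 to 2076 CPM in Ketamine and 1781 to 2920 CPM in Control. All K4 sums thus lay above all Ketamine sums. The median log2 fold change of these markers in K4 against Ketamine was 0.46, with 0 called. Pan-neuronal markers summed to 6449 to 6938 CPM in K4, 6661 to 6802 CPM in Ketamine and 6831 to 7151 CPM in Control. Of these 8, 2 rose and 1 fell after K4 (0 called with the offset), and 4 rose and 1 fell after ketamine (2 and 1 with the offset). Of 6 excitatory neuron markers 2 fell after ketamine, with or without the offset, and 0 were called after K4. Of 7 inhibitory neuron markers 1 rose and 1 fell after ketamine (0 and 1 with the offset), and 0 were called after K4. No marker of these 8 lists was at 0. Of 6 striatal markers 2 rose after K4 and 1 after ketamine (1 and 0 with the offset), and no meningeal, choroid plexus, ependymal or blood marker was called after either drug.

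The genes whose pattern over the 9 libraries was most like each of the 7 were found by the root mean square difference of log2 CPM, each gene centred on its mean, among 10007 genes. For Nlgn1 they were Tmtc1 (0.032) and Dcx (0.037), the gene of doublecortin, against a median of 0.187 over the candidates. For Lrrtm1 they were Ndn (0.041) and Fhl2 (0.049), for Lrrtm2 Fam49a (0.050) and Bcl11b (0.054), for Nrxn3 Wdr7 (0.023) and Grin2b (0.025), and for Nrxn2 Slc7a8 (0.029) and Ap2a1 (0.033). Nlgn2 was nearest to Furin (0.028) and Kcnd3 (0.033), and Nlgn3 to Mcm3ap (0.022) and Spg7 (0.028). Among the 7 themselves, Nlgn2 and Nlgn3 were the most alike (0.068), and Nlgn1 and Lrrtm1 the least (0.271).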

How the data were processed

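A stranded kit for poly(A) RNA was used, per the labels' protocols. The submitters' processing notes name bcl2fastq 2.20.0, Trimmomatic, HISAT2 2.1.0, StringTie 2.1.3b and build rn6. Per the file headers, the authors deposited a table of read counts, and TPM and FPKM for each library. The sources used here do not give the counting tool or its strand setting. The ratio of counts to FPKM and library total gave each gene's implied transcript length.

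Counts were scaled with TMM and filtered with filterByExpr (minimum count 10, minimum total 15). All 9 libraries were fitted as 3 groups with the robust quasi-likelihood test of edgeR 4.0.16 in R 4.3.3, Benjamini-Hochberg adjusted over all 18047 genes. The common biological coefficient of variation was 10.2%. The length offset removes each library's trend of log2 CPM on implied length. Fits were tested on simulated counts. Each call also depends on the shared spread, so a library of the third group can change it.

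The 7 genes and all lists were chosen with earlier results of these data known. Named were the 7 genes, up to 4 called genes per list and comparison by smallest p, and the 2 most alike genes of each of the 7 (mean log2 CPM of at least 3). Ctnna1, Ctnna2, Tenm1 and Tenm4 were named after their values were seen. Some genes of these lists are counted but not reported by name. Deviations from the group mean correlated at 0.00241 to 0.106 between same-numbered libraries of different groups. Between differently numbered ones the correlations ran from −0.157 to 0.0688. The labels do not say whether numbers pair libraries, and these weak correlations cannot settle it, so the main fit had no pairing. Alternatives were other scalings, filters, DESeq2 1.42.0, 2-group fits, a replicate block, limma 3.58.1 on log2(TPM + 1) or log2(TPM + 0.1), and leaving out each library. TPM with libraries scaled to 1 median was chosen after seeing the data.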

Additional observations from a re-analysis of the deposited data

How the results depend on the processing

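Nlgn1 stayed lower and Lrrtm1 higher than Control under all 13 other settings and in all 9 fits without 1 library, in both drug groups. Genes called in K4 against Control numbered 1095, against 1890 by DESeq2, 452 with only the groups compared, 472 with the length offset and 1 by limma on unfiltered log2(TPM + 1). For Ketamine against Control (3013) they were 1465 with the offset, 1840 on log2(TPM + 1), 1837 on log2(TPM + 0.1) and 537 unfiltered. For K4 against Ketamine (0) they were 6 with no count filter, 70 by DESeq2, 27 with only the groups compared, 2 on each filtered TPM scale and 1 unfiltered. The 3-group test gave 2205, and 991 with the offset. Without 1 library the counts ran from 174 to 1548 for K4, 1177 to 3191 for Ketamine, 0 to 27 for K4 against Ketamine and 894 to 2492 for the 3 groups. The causes were not tested.

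Of the 7 genes, 1 was called after K4 and 0 with only the groups compared, with the offset and on all TPM scales. After ketamine 2 were called, 1 with upper quartile scaling, no count filter, the offset or TPM scaled to 1 median, and 0 with only the groups compared or on other TPM scales. Without 1 library 0 to 2 were called after K4 and 0 to 4 after ketamine.

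Whether replicate numbers pair the libraries is not known. A replicate block called 1168, 3191, 1 and 2255 genes in K4 against Control, Ketamine against Control, K4 against Ketamine and the 3 groups, with 1, 2 and 0 of the 7 genes called in the pairs. Block and offset together gave 529, 1529, 1 and 1029 genes, and 0, 1 and 0 of the 7.

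Signs that turned belonged to uncalled genes. For K4 against Control, Nlgn3 was at 0.0360 with the offset (0.0355 with the block), 0.169 on log2(TPM + 1), 0.171 on log2(TPM + 0.1) and 0.0202 on scaled TPM, and ran from −0.0667 to 0.0487 without 1 library. On log2(TPM + 1), filtered or not, and on log2(TPM + 0.1), Nrxn3 was at 0.0889 and 0.0905 and Lrrtm2 at 0.0713 and 0.0744. For Ketamine against Control, Nlgn2 was at 0.0158 with the offset (0.0156 with the block), and ran from −0.0979 to 0.0180 without 1 library. On the same TPM scales Nlgn2 was at 0.0764 and 0.0773, Nrxn3 at 0.0113 and 0.0120 and Nlgn3 at 0.00445 and 0.00475. For K4 against Ketamine, Nrxn2 was at −0.0256 and Nrxn3 at −0.00387 with the offset (−0.0253 and −0.00398 with the block), and Nrxn2 at −0.0507 on scaled TPM and from −0.0370 to 0.0482 without 1 library. Fits that leave a group with 2 libraries use the spread of all groups. The 7 genes had at least 1304 counts in every library, and 3 libraries per group limit the precision.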
